A study of Mus musculus with 39 samples.

Results

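Cluster 8 of the consensus peaks held 3004 regions of the mouse genome, out of 20811 consensus peaks in all and 20809 on the nuclear chromosomes. Its members were the rows of the deposited consensus file that carry cluster number 8. The authors set that number by k-means from NOTCH and RBPJ binding intensities, so the members were chosen by measured binding and their binding pattern is described here without a test. Binding was measured by Targeted DamID (TaDa), in which a protein fused to the bacterial methylase Dam marks nearby GATC sites in living cells. Plasmids were electroporated in utero into the cortex of wild-type MF1 mice at E13.5 and the tissue was dissected at E14.5.

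The fusion was driven by the Hes5 promoter in radial glial cells (RGCs) or by the Tα1 promoter in intermediate progenitor cells (IPCs), and promoter activity defined each cell type without sorting. In RGCs, 3 samples carried human RBPJ1, and 4 carried Notch, of which 2 were mouse NICD and 2 mouse NdECD. In IPCs, 3 samples carried human RBPJ1 and 4 mouse NICD. The Dam-only controls were 5 RGC and 4 IPC samples, and within a cell type the RBPJ and Notch lists share these controls. The other 16 of the 39 samples of the series were not used here. The peak files used here give pooled positions only, with no height, count or value for single samples. From them the depth is unknown, no replicate could be left out and no test between conditions could be made. The 95% intervals given here cover counting error over peaks alone, and neighbouring peaks are not independent.

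RBPJ is the DNA-binding protein of the Notch pathway. When a Notch receptor is cleaved, its intracellular domain enters the nucleus and joins RBPJ, and genes such as Hes1 and Hes5 are switched on. Without that domain RBPJ can bind alone and recruit corepressors. In the cortex, Notch signalling keeps RGCs as stem cells, and IPCs are the progeny that leave this state on the way to neurons. The core of the site that RBPJ reads is TTCCCA, while TAATTA is the core of many homeobox sites.

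Sequences from the mm10 (GRCm38) assembly give examples from these regions. The windows below, on the plus strand, were taken from members nearest to genes of the Notch pathway and of RGCs. Each was placed at the TTCCCA nearest to the midpoint of its member, so it holds the word by choice. Members without the word, such as that of Pax6, have no window. The capitals mark TTCCCA, which reads TGGGAA on the other strand.
Nepro, chr16:44718465-44718544: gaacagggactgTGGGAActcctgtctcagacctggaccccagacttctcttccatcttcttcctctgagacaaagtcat
Sox2, chr3:34496071-34496150: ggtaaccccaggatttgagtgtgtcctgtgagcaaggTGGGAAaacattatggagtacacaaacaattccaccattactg
Gli3, chr13:15133477-15133556: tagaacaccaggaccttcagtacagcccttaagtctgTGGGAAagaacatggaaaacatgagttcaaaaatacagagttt
Emx2, chr19:59532566-59532645: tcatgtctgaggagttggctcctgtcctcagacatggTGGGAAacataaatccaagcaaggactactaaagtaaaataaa
Vim, chr2:13625250-13625329: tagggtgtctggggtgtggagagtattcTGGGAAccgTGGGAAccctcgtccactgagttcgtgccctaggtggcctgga
The window near Vim held the word 2 times and the other windows held it once.

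The next windows are extremes among the members. The first, on chromosome 14 with Otx2 as its nearest gene, had the most TTCCCA words in 150 bases, 8 in a tandem array with both orientations. The one near Cd1d1 had the most TAATTA words, 5, overlapping each other. The one near Gm21833 had the lowest GC content, 8.67%, and there the capitals mark each G or C.
Otx2, chr14:48702688-48702837: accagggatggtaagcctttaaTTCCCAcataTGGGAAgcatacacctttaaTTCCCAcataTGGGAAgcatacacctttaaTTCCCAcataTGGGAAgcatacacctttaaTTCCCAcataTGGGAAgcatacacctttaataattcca
Cd1d1, chr3:87059081-87059230: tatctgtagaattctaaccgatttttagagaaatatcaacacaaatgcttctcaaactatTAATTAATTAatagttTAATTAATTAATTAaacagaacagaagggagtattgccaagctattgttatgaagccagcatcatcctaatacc
Gm21833, chr16:83288652-83288801: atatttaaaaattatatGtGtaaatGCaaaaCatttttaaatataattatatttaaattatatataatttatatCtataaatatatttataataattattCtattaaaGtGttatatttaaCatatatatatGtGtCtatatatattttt

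Cluster 8 was almost wholly made of RBPJ peaks of RGCs. Of the 3004 members, 2987 held a called peak of RBPJ in RGCs, and each of these held 1 such peak and no more. Over all consensus peaks 67.6% held one, and 21.2% of the consensus peaks that did so were in cluster 8. The start and end of 2972 members were those of a single RGC RBPJ peak, so merging with another list had not changed them. A Notch peak of RGCs was called at 26 members, against 17.7% of all consensus peaks. An RBPJ peak of IPCs was called at 7 members, against 26.2% of all, and a Notch peak of IPCs at 2, against 10.1% of all. RBPJ in RGCs was the sole call at 2969 members, against 52.1% of all consensus peaks. Because the cluster number was set from the intensities behind these calls, nothing is read from the differences.

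In all, 18 members were called in 2 lists and none in more. The matching share over all consensus peaks is not given here, so nothing is read from this count. These 18 were called for RBPJ and Notch in RGCs (10 members), for RBPJ in both cell types (6) or for RBPJ in RGCs and Notch in IPCs (2). The widest of them lay in Mios, a regulator of mTORC1 signalling, at chr6:8211030-8218559, and spanned 7530 bp. The next 6 by width were also called for RBPJ and Notch in RGCs. They lay in introns of Dennd1a, Kcnq5 (a potassium channel), Ddhd1 and Tenm2 (a synaptic adhesion protein), and between genes near Lef1 and Mamdc2. Lef1, a transcription factor of Wnt signalling, had its start site 185 kb from that peak. The peak of 3340 bp over a start site of Dock9, at chr14:121738382-121741721, was called for RBPJ in both cell types.

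Members were narrower than the typical consensus peak, whose median width was 1890 bp. Their own median was 1641 bp (95% interval 1600 to 1685, quartiles 1068 to 2395) and they ranged from 213 to 8155 bp. The median was 2278 bp in cluster 5, where RBPJ in RGCs was the sole call at 88.5% of peaks, and 1412 bp in cluster 3, made mostly of IPC RBPJ peaks. The widest member, 8155 bp at chr3:50301445-50309599, lay in an intron of Slc7a11, which encodes the cystine transporter, and held 13 TTCCCA words. Next in width after Mios came peaks in introns of Sox6 (6768 bp, 9 words), a transcription factor, and of Rbfox1 (6605 bp, 6 words), a neuronal splicing factor. A peak of 6252 bp lay 273 kb from the start site of Tox.

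Cluster 8 had the lowest GC content of the 8 clusters. The median member was 41.3% G and C (95% interval 41.1 to 41.5, quartiles 38.04 to 44.75), whereas the medians of the other clusters ran from 44.5% in cluster 1 to 48.4% in cluster 7. Within the cluster GC content ran from 26.7% to 66.01%. On all 20 chromosomes with members, the median of cluster 8 was below that of cluster 5. The mouse genome over the same chromosomes was 41.8% G and C. Thus the members were AT-rich against other consensus peaks and lay near the composition of the genome, which the other clusters exceeded.

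The surroundings differed in the same direction. The 100 kb around a member had a median GC content of 41.5%, against 43.6 to 44.3% in the other clusters. A member was typically 0.44 percentage points below its surroundings (median difference -0.44), and 56.3% of members (54.5 to 58.0) lay below them. In the other clusters the median peak was 0.72 to 3.14 points above its surroundings. CpG dinucleotides were at 8.63 per kb of member sequence, beside 8.34 in the genome and 13.7 to 23.8 in the other clusters.

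**Figure D1:**
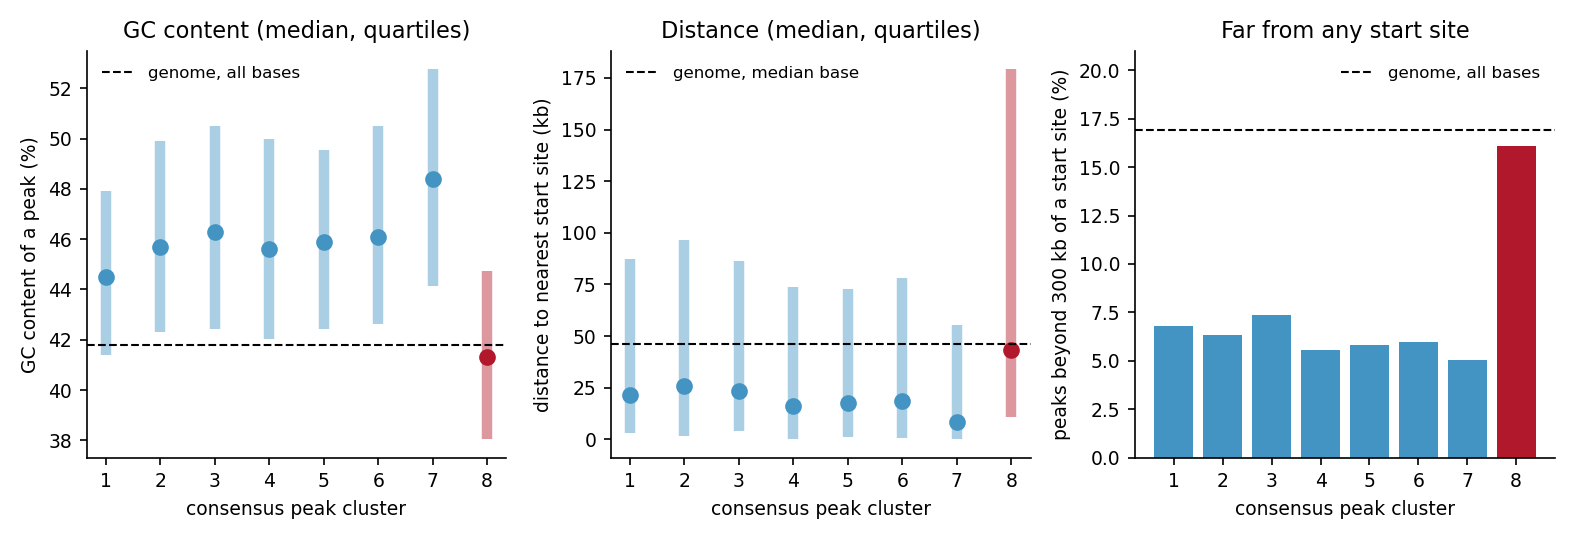
GC content of each consensus peak (left, in percent) and distance to the closest protein-coding start site (middle, in kb) by cluster, with points for medians and bars for quartiles, and the percentage of peaks beyond 300 kb of a start site (right). Cluster 8 (red) sits at 41.3% GC, 43202 bp and 16.1%, next to the dashed lines for the genome and apart from clusters 1 to 7 (blue).

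Members lay farther from start sites than the peaks of other clusters, though not farther than the genome at large. The median distance from the edge of a member to the closest protein-coding start site was 43202 bp (95% interval 39899 to 47791), against 17474 bp in cluster 5, 23288 bp in cluster 3 and 8577 bp in cluster 7. With the start sites of all annotated genes, the medians were 15770 bp in cluster 8 and 7575 bp in cluster 5. Measured from peak midpoints, the median was 44.3 kb in cluster 8 and 18.8 kb in cluster 5, and the median base of the genome lies 46.2 kb from a start site. On each of the 20 chromosomes the median distance was longer in cluster 8 than in cluster 5. Of the members, 16.1% (14.84 to 17.47) lay more than 300 kb from any protein-coding start site. This held for 16.9% of genome bases and 5.07 to 7.36% of the peaks in the other clusters. Only 116 members, 3.86% (3.23 to 4.61), lay over a start site, against 9.46 to 29.7% elsewhere.

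By midpoint, 52.0% of the members (50.2 to 53.8) were intergenic, meaning outside protein-coding genes and the 5 kb upstream of their start sites. Introns held 40.8% (39.1 to 42.6), exons 4.66% (3.96 to 5.47) and the 5 kb upstream windows 8.06%, and a window may overlap another gene. In the other clusters 31.1 to 43.4% were intergenic. Gene bodies held 45.5% of members, where they cover 40.3% of the genome, and exons cover 3.72%. Counted once per member, the genes that held one had a median length of 178 kb, against 116 to 143 kb in the other clusters. A long gene can hold more peaks and so counts more often in these medians. No genome value was set beside them, so length is not read as a trait.

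GC content fell with distance, and the median of cluster 8 was below that of cluster 5 in each of 5 distance classes. Members over a start site had a median GC content of 44.9%, and cluster 5 peaks there 50.9%. From 10 to 50 kb the medians were 42.34% and 44.97%, and beyond 300 kb they were 37.9% and 40.8%. In each of 5 GC classes the median distance was longer in cluster 8 than in cluster 5. Members below 36% GC lay at a median of 196708 bp, against 125703 bp in cluster 5, and members at 43% or more lay at 21427 bp, against 10439 bp.

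TTCCCA was denser in the members than in the genome and less dense than in most other clusters. The members held 1.07 words per kb on both strands (95% interval 1.05 to 1.10), whereas the genome held 0.936, cluster 5 1.24 and cluster 7 1.33. Cluster 1, mostly RGC Notch peaks, was lower at 0.998. At least 1 word was present in 76.7% of the members (75.2 to 78.2) and at least 3 in 30.6%. In central windows of a fixed 300 bases, 29.1% of members held the word, beside 31.5% in cluster 5, 29.9% over all consensus peaks and 25.6% of 32851 RefSeq promoter windows of the same length.

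Within classes of GC content the densities of clusters 8 and 5 lay closer together, except from 36 to 38%, where they stood about as far apart. Among members below 36% GC the density was 0.754 per kb (0.685 to 0.828), and in cluster 5 peaks of that class 0.794 (0.665 to 0.941). The values were 0.809 and 0.959 from 36 to 38%, 1.01 and 1.05 from 38 to 40%, and 1.10 and 1.13 from 40 to 43%. At 43% or more the densities were 1.28 (1.23 to 1.33) and 1.29 (1.27 to 1.31). The intervals of both clusters overlapped in all 5 classes. Cluster 7 was higher than cluster 8 in all 5 classes. It stood at 1.16 (0.835 to 1.58, 24 peaks) below 36% GC and 1.09 (0.906 to 1.30, 55 peaks) from 36 to 38%. From 40 to 43% it stood at 1.27 (1.18 to 1.37, 248 peaks). In these classes its intervals did not overlap those of cluster 8, and in the other classes they did. Counting words per class does not show that the clusters are alike, since the interval of the lowest class in cluster 5 rests on 114 peaks.

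TAATTA stood at 0.407 per kb in the members, the genome being at 0.410 and cluster 5 at 0.322. Within the GC classes from 36% up the order between the clusters turned. From 36 to 38% GC the members held 0.511 per kb (0.459 to 0.567) and cluster 5 held 0.661 (0.577 to 0.754), and from 38 to 40% the values were 0.457 (0.413 to 0.504) and 0.561 (0.503 to 0.625). In the lowest class they were 0.771 and 0.735, with overlapping intervals. From 40 to 43% they were 0.405 (0.372 to 0.441) and 0.465 (0.433 to 0.498). At 43% or more they were 0.243 (0.222 to 0.265) and 0.258 (0.248 to 0.269). The intervals overlapped in all classes but that from 36 to 38%. In 300 central bases the word was found in 10.7% of members, 10.02% of all consensus peaks and 5.29% of RefSeq promoter windows.

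**Figure D2:**
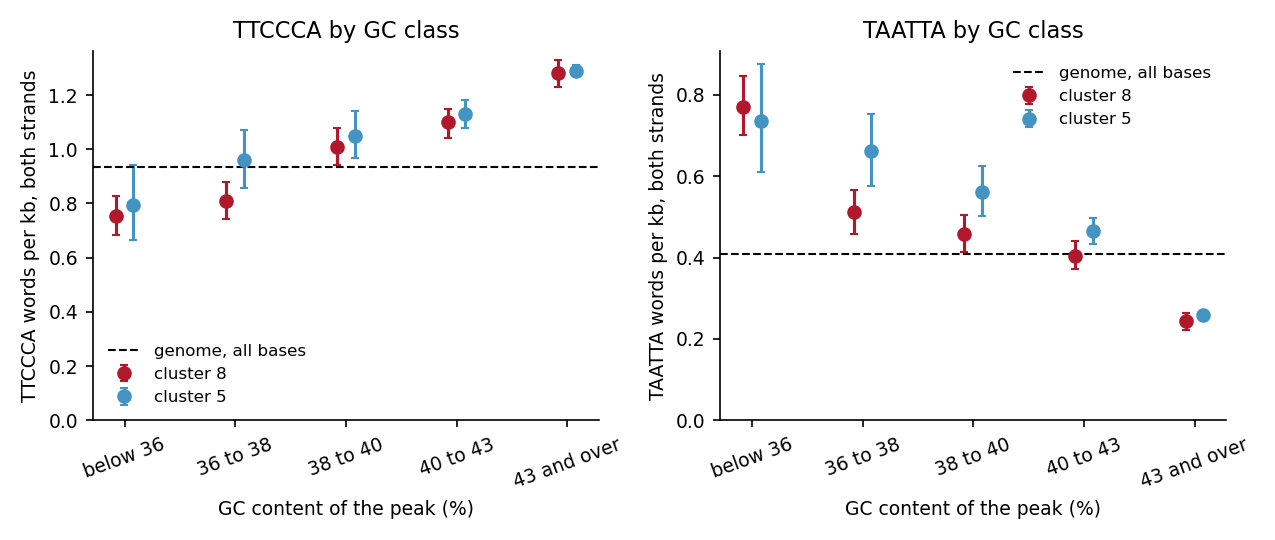
TTCCCA (left) and TAATTA (right) words per kb on both strands by GC class of the peak, for cluster 8 (red) and cluster 5 (blue), with 95% Poisson intervals and dashed lines at the genome's density. TTCCCA climbs from 0.754 to 1.28 per kb across the classes in cluster 8 and overlaps cluster 5 throughout. TAATTA is lower in cluster 8 in the classes from 36% GC up, with overlapping intervals from 38% up.

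The GATC sites that Dam methylates stood at 3.598 per kb in the members, against 2.51 in the genome. Cluster 1 was higher at 3.664, and the other clusters ran from 1.002 in cluster 3 to 3.378 in cluster 4. A site was absent from 51 members, 1.70% (1.29 to 2.23), against 9.76% of all consensus peaks. That share was 51.3% in cluster 3 and 1.05% in cluster 5. As the method reads methylated GATC, the part of the site density in which regions were called was not tested.

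Some members were linked to each other by shared sequence. Of the 3004 members, 215 (7.16%) aligned to another member over at least 500 bp at 80% identity or more. The share depended on this choice, with 1.30% at 90% identity and 15.4% over 200 bp. Those at the first setting fell into 10 groups, of which the largest linked 192 members (6.39%) and the next largest only 4. The 192 were linked in a chain, so that a member need not align to all others. Alignments to any consensus peak were found for 7.69% of members (6.79 to 8.70), against 0.303 to 2.38% of the peaks in the other clusters. The 192 members had a median of 75.5% of their bases in lower case in the reference, the mark of known repeats, whereas the other members had 18.4%.

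The member that aligned to most others, 88 of them, was chr11:21923542-21927626, 73989 bp from a start site of Otx1. It spanned 4085 bp, was 36.1% G and C and was 97.8% masked. It aligned 50033 times to the nuclear chromosomes over 500 bp or more, with a median identity of 86.5%. Its longest translated alignment to transcripts of L1td1, a mouse gene derived from the first open reading frame of a LINE-1 element, covered 82 residues at 39.0% identity. LINE-1 elements are long retrotransposons that copy themselves through RNA, and most copies in the genome are broken.

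Of all consensus peaks, 119 held at least 500 bp of an alignment to this sequence, and 75.6% of these were in cluster 8. They made up 3.00% of members (2.44 to 3.67), beside 0 to 0.406% in the other clusters. The query had been picked for its alignments to other members, so this difference was in part fixed by the choice. Alignments covered 2.09% of member bases and 0.0910% of the bases of other consensus peaks, beside 3.90% of the genome. The 192 linked members had a median GC content of 39.3% and lay at a median of 123963 bp from a start site. None lay over a start site and 20.8% lay in a gene body. They held 0.670 TTCCCA words and 4.84 GATC sites per kb, whereas the other members held 1.11 and 3.50. RBPJ in RGCs was the sole call at 190 of them. How uniquely reads map within such copies, and its part in these peaks, was not tested.

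The windows below are examples from this group. They hold, in capitals, the most frequent word of 12 bases in the largest group that is not of low complexity. It was carried by 61 of the 192 members and by 70 members in all (2.33%), against 11 cluster 5 peaks (0.235%). The word was picked within this group, so this difference was in part fixed by the choice.
near Arhgap18, chr10:26593441-26593540, plus strand: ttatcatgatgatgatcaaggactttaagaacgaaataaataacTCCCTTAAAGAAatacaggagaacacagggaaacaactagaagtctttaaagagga
near Necab1, chr4:15076163-15076262, plus strand: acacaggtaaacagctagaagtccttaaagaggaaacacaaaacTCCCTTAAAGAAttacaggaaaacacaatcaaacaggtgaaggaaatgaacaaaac
near Mypn, chr10:63137138-63137237, plus strand: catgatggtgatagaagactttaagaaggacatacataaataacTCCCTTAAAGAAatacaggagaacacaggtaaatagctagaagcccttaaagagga
near Olfr401, chr11:74119712-74119811, minus strand: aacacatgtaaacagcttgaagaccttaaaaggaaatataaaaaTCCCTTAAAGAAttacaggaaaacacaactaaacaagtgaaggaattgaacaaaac
near Olfr267, chr4:58777346-58777445, minus strand: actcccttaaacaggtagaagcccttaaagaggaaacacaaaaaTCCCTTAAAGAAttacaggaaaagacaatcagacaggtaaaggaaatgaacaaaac
Over their 100 positions, the 10 pairs of these 5 windows were identical at 47 to 90% of positions. The windows were lined up on the word alone and not aligned. The end of the Arhgap18 window resembles the start of the Necab1 window. Low values may therefore come from comparing different parts of the shared sequence. Over all members the most frequent word of 12 bases was CACACACACACA, a simple repeat found in 27.0% of members and 31.7% of cluster 5 peaks.

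**Figure D3:**
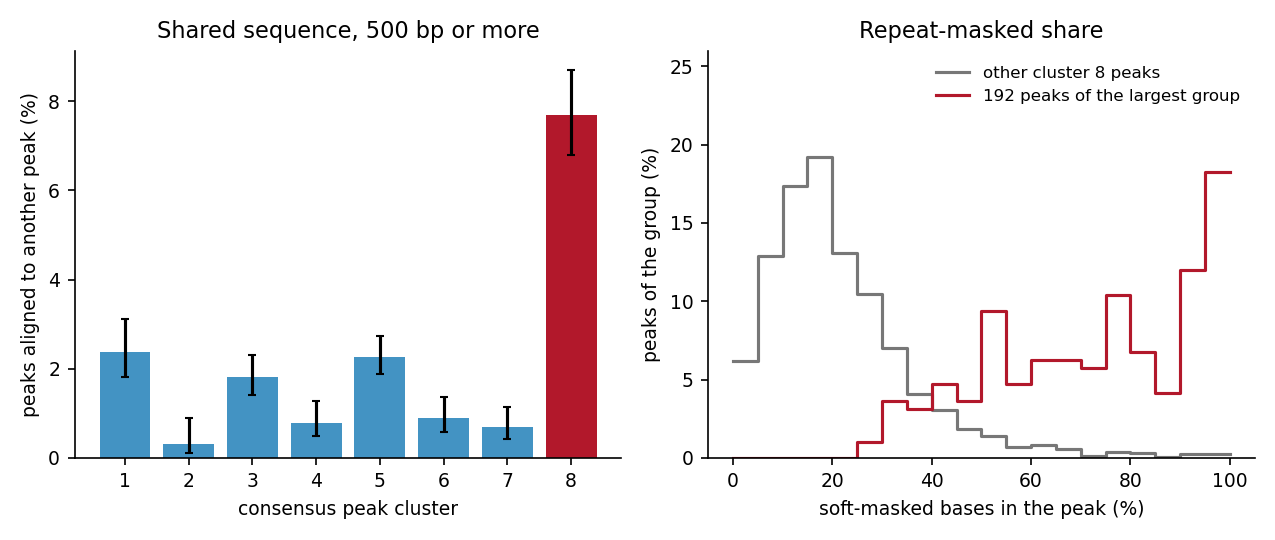
Left, percentage of the peaks in each cluster that aligned to another consensus peak over 500 bp or more at 80% identity, with Wilson 95% intervals. Right, soft-masked bases per peak (in percent) as a histogram for the 192 linked members (red, median 75.5%) and the other members (grey, median 18.4%), showing that cluster 8 stands at 7.69% and that its linked members are mostly repeat sequence.

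Repeats as a whole were less frequent in the members than in the genome. Lower-case bases made up 24.7% of member sequence, 34.3% of the genome and 14.53 to 19.45% of the other clusters. The median member was 19.3% masked. At least 50% of the length was masked in 294 members (9.79%), against 3.02% of all consensus peaks. Of the members, 91 (3.03%) lay on the X chromosome, which holds 6.53% of the genome's bases, and that chromosome had 0.532 members per Mb, against 1.02 to 1.33 on the autosomes. The other clusters had 0.870 to 2.93% of their peaks there, and 22.4% of the consensus peaks on X were members.

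Members were scattered. The median gap to the nearest other member was 268 kb, and 22.0% (20.6 to 23.5) had another member within 100 kb. The median gap from a member to the nearest consensus peak of any cluster was 46.6 kb, against 26.6 kb for cluster 5 peaks. No consensus peak lay within 100 kb of 27.1% of members (25.5 to 28.7), and this held for 14.4% of cluster 5 peaks (13.4 to 15.4) and 12.6% of all peaks outside cluster 8. The nearest consensus peak was most often in cluster 5 (22.1% of members), in cluster 8 itself (21.1%) or in cluster 3 (16.7%). These clusters held 22.48%, 14.44% and 16.26% of all consensus peaks.

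When members within 100 kb of each other were joined, 2343 stood alone, 274 runs held 2, 35 held 3 and only 2 held 4. One of the longest runs, 169 kb at chr6:6508999-6678165, lay at Sem1, which encodes a proteasome subunit, and had a median GC content of 38.3%. The other, 177 kb at chr10:71103058-71279769, lay at Bicc1, an RNA-binding protein, and Ube2d1, a ubiquitin-conjugating enzyme. Each of these spans held 5 consensus peaks. The next in order held 3 members each, near Xkr4, at Ppp6c and Scai, and near B230118H07Rik. None of these runs held a member of the linked repeat group.

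**Figure D4:**
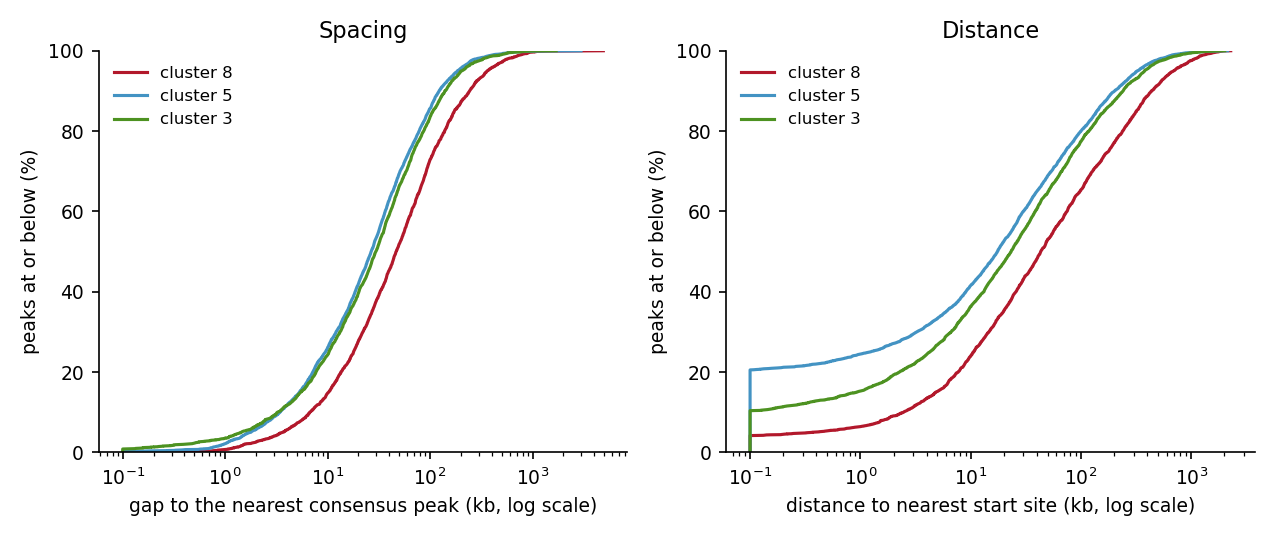
Cumulative percentage of peaks by gap to the nearest consensus peak (left) and by distance to the nearest start site (right), in kb on log scales with values under 0.1 kb drawn at 0.1, for clusters 8 (red), 5 (blue) and 3 (green). The curve of cluster 8 lies to the right in both, with medians of 46.6 kb for the gap and 43202 bp for the distance.

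Few members were nearest to a gene of the Notch pathway. Of the 94 consensus peaks nearest to a gene of a 34-gene pathway list, 1 was a member (1.06%, 0.188 to 5.78), whereas 14.4% of all consensus peaks were members. The member, chr16:44718465-44719612, lay 4.69 kb from a start site of Nepro, a Notch target that keeps neural progenitors undifferentiated. It was called for RBPJ in RGCs only, was 42.1% G and C and held 1 TTCCCA word. As a share of all members the list stood at 0.0333%, its genes being nearest to 0.174% of the genome and to 0.522% of the peaks outside cluster 8. The list includes direct Notch targets, and the cluster number was set from NOTCH and RBPJ intensities. The low share may in part follow from that choice, which was not tested.

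Markers of RGCs were nearest to 10 members out of 156 consensus peaks (6.41%, 3.52 to 11.4), or 0.333% of members, where they are nearest to 0.245% of the genome. At all 10 the sole call was RBPJ in RGCs, and none lay over a start site. Sox2, a stem cell transcription factor, had 3, at 108, 154 and 241 kb. Sox9, needed for neural stem cell formation, had 2, at 503 and 697 kb. Gli3, the hedgehog repressor that patterns the cortex, had 2, at 329 and 343 kb. Emx2, a patterning homeobox gene, had 1 at 68.8 kb, and Vim, an intermediate filament gene, had 1 at 44.8 kb that belonged to the linked repeat group. The member of Pax6, a homeobox and paired domain factor of RGCs, lay 36.1 kb from its start site in an intron of Elp4 and held no TTCCCA word.

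No member was nearest to a marker of IPCs, out of 22 consensus peaks (0%, upper bound 14.9%). That bound includes 14.4%, the share over all peaks, and these genes are nearest to only 0.0307% of the genome. Neuron markers had 5 members of 62 peaks (8.06%, 3.494 to 17.53), or 0.166% of members and 0.149% of the genome. One lay over a start site of Cux2, an upper layer factor, and was 55.9% G and C. Fezf2, a deep layer factor, had a member at 14.8 kb, Rbfox3 one in an intron at 72.8 kb, and Sox5 had 2 in introns at 138 and 250 kb. Markers of vessels, blood and meninges had 5 of 26 (19.2%, 8.51 to 37.9), or 0.166% of members and 0.117% of the genome. Among these members were 2 near Cdh5 and 1 each near Col1a2 and Dcn, at 41.6 to 644 kb from a start site. No expression values were used here, so nearness says nothing of whether a gene was on.

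The other gene families listed differed in their shares. Cadherins and protocadherins, which hold cells together, were nearest to 59 members of 195 consensus peaks (30.3%, 24.24 to 37.03). These were 1.96% of members, beside 2.08% of the genome and 0.764% of other consensus peaks, and their median distance was 644067 bp. Axon guidance and synaptic adhesion genes had 103 of 570 (18.1%, 15.1 to 21.4), or 3.43% of members and 3.00% of the genome. Ion channels and transmitter receptors had 68 of 339 (20.1%, 16.1 to 24.6), or 2.26% of members and 2.36% of the genome. Zfp genes had 48 of 356 (13.48%, 10.32 to 17.42), near the share over all peaks. Other tandem gene families had 32 of 128 (25%, 18.3 to 33.2), or 1.07% of members and 1.94% of the genome. Hox genes had 1 of 6.

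Chemosensory receptor genes, which are used in the nose and tongue, had the highest share of members among these lists. Of the 98 consensus peaks nearest to one, 53 were in cluster 8 (54.1%, 44.2 to 63.6). They were 1.76% of the members (1.35 to 2.30), whereas the other clusters stood at 0.0892 to 0.384% and the genome at 2.21%. By family, 34 were nearest to olfactory (Olfr), 9 to Vmn1r and 8 to Vmn2r vomeronasal and 2 to taste (Tas2r) receptor genes, on 16 chromosomes and over 52 genes. Their median distance was 7.19 kb, their median GC content was 38.1%, and 11 of them belonged to the linked repeat group. These genes are close copies of each other, so reads may map to more than 1 of them, which was not tested.

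**Figure D5:**
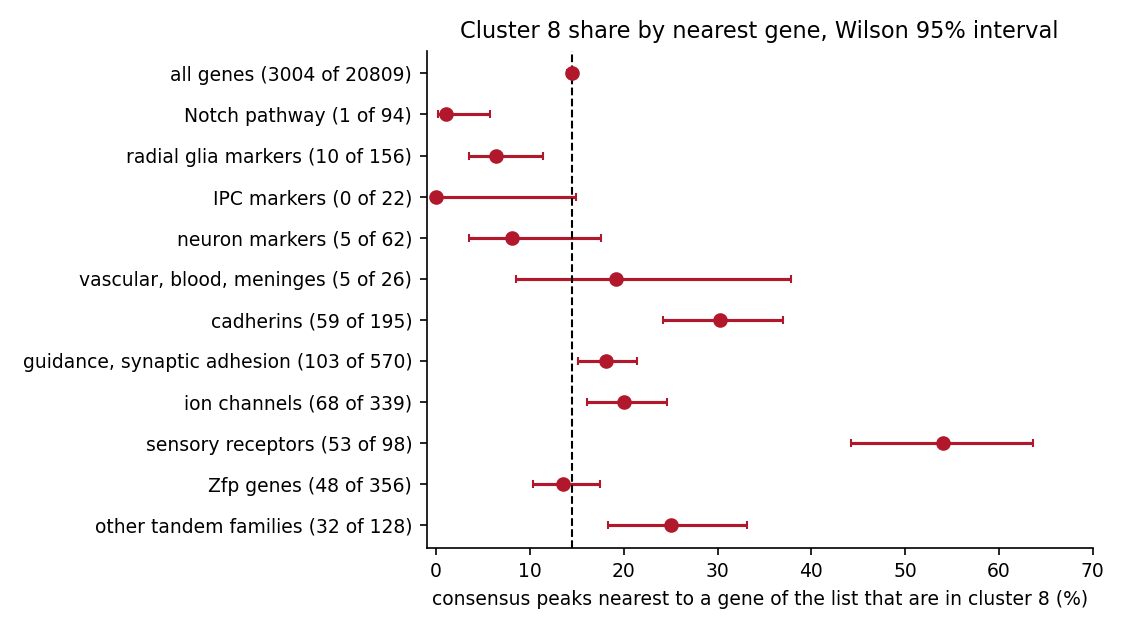
Percentage of the consensus peaks nearest to a gene of each list that were in cluster 8, with Wilson 95% intervals and the counts beside each name. The dashed line marks 14.4%, the share over all peaks. Notch pathway genes (1.06%) and radial glia markers (6.41%) lie below it, and cadherins (30.3%) and sensory receptors (54.1%) lie above it. As the clusters were set from NOTCH and RBPJ intensities, the share for Notch pathway genes may in part follow from that choice.

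The members spread over 2246 nearest genes, 1764 of which had a single member and 64 of which had at least 4. For 738 of these genes no consensus peak of another cluster was nearest. The matching count for other clusters was not made, so nothing is read from this number. The gene 5730522E02Rik on chromosome 11 had the most, 7 of its 16 consensus peaks, at 21.2 to 599 kb from a start site. Cell adhesion genes followed with 6 members each. These were Cdh11 (of 10 consensus peaks, 4.08 to 1414 kb), Cdh8 (of 15, 352 to 1549 kb), Pcdh7 (of 7, 128 to 1778 kb), Cntnap4 (of 15, 10.4 to 236 kb) and Tenm2 (of 18, 77.6 to 1339 kb). Pik3c3, a lipid kinase of autophagy, also had 6 of 16. Next came 1700123L14Rik, Ttll7 (a tubulin-modifying enzyme) and Ccser1 with 5 each. All 5 members of Ccser1 lay inside the gene, which spans 1203 kb, and ranged from 31.6 to 40.5% G and C.

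The gene bodies named here, which held the most members, were very long. Ranking by members inside a gene favours long genes, so their length is not read as a trait of the members. Nlgn1, a synaptic adhesion gene of 906 kb on chromosome 3, held 6 members spread over 564 kb, all between 36.5 and 39.6% G and C, of 12 consensus peaks in all. Fam19a1 held 6 of 8, Erc2 (an active zone protein of synapses) 5 of 10, and Lsamp, an adhesion gene of 2197 kb, 5 of 16. The span annotated as Fgfr2 held 8 of 53, but at 2961 kb it also covers Ate1, Tacc2 and other genes, and only part of these members were nearest to Fgfr2. These gene bodies were chosen after their values were seen.

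The few members over a start site held more CpG than other members and less than cluster 5 peaks at start sites. The 116 lay at 115 genes, had a median width of 2539 bp and held a median of 12.3 CpG per kb. Other members held a median of 7.15, whereas cluster 5 peaks over a start site held 30.1. The widest, 6124 bp at chr3:73708081-73714204, covered start sites of Bche (butyrylcholinesterase), was 38.2% G and C and held 5 TTCCCA words. Others by width were at Tnpo3 and Xpot (nuclear transport receptors), Cr1l, Sat1 (a polyamine enzyme), Zfp28, Mapk8ip1 and Tmem30b. Their GC content ran from 38.2% at Bche to 54.7% at Mapk8ip1. All but Tmem30b, a Notch peak of RGCs, had RBPJ in RGCs as their sole call.

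At the other end, the member farthest from a protein-coding start site, chr14:91602484-91602881, lay 2283 kb from that of Pcdh9, a protocadherin. It was 398 bp wide, 82.9% masked and held no TTCCCA word. The next were near Olfm4 (2010 kb), Cntnap5b (1936 kb), Pcdh9 again (1916 kb) and Pik3c3 (1888 kb), and the 4 held 0 to 2 words. The member with the lowest GC content, 26.7%, lay 379 kb from Cdh19 and was 281 bp wide. The next were in introns of Csmd3 (27.4%) and Hdac9 (27.6%), and 2 near Gm21833 (28.0 and 28.3%), the wider of which holds the AT-rich window printed above.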

How the data were processed

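Per the labels and the study's methods, the authors ran MACS2 in broad mode against each Dam-only control, kept peaks past a strict FDR in all such comparisons, merged the lists into consensus peaks on mm10 and clustered length-normalized, z-scored intensities. The deposited peak files used here hold positions only, in bp. Here each consensus peak was joined to the 4 lists by an overlap of at least 1 bp, to GENCODE vM21 protein-coding start sites and to the RefSeq GRCm38 sequence, in which lower case marks repeats. Peaks were aligned with BLAST+ 2.17.0. Shares have Wilson, medians order-statistic and word densities Poisson 95% intervals. Overlaps, distances and word counts were checked against brute force, and intervals were tested on simulated data. Genome values cover chromosomes 1 to 19 and X between their first and last known base. The members and gene lists were chosen with earlier results of these data known. Named were the genes nearest to most members, listed genes nearest to a member, and extremes of width, distance, GC content, lists called and run size.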

Additional observations from a re-analysis of the deposited data

How the results depend on the processing

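Of 33 alternatives, 17 stayed within the 95% interval of the value reported and 16 did not. In the central 500 bp, the median GC content was 41.0%, TTCCCA stood at 1.125 and GATC at 3.982 per kb, and the median masked share was 17.8%. With all annotated genes the median distance to a start site was 15770 bp (cluster 5, 7575 bp) and 42.8% of members were intergenic (cluster 5, 29.1%). By peak bases, 50.1% of the sequence was intergenic. The longer word TTCCCAC stood at 0.236 per kb (cluster 5, 0.285). Within 50 kb and 200 kb, 11.8% and 40.5% of members had another member. Shared sequence was found for 1.30% of members at 90% identity and for 15.4% over 200 bp. Among members with a gene within 100 kb, 2.65% were nearest to a sensory receptor gene. Without the 192 linked members, an alternative chosen after seeing the data, TTCCCA stood at 1.11 and GATC at 3.50 per kb and the median masked share at 18.4%. No paired analysis was possible because the peak files used here hold pooled positions and none of the results comes from a test.
The lists keep no height or count, so weak and strong peaks cannot be told apart, and a region absent from a list was not shown to be unbound. Dam methylation can be read only at GATC sites, which limits where an edge can fall. The nearest gene need not be the regulated gene.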

Other observations

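The 17 members without an RBPJ call in RGCs, named here after their values were seen, comprised 16 called for Notch in RGCs only and 1 called for RBPJ in IPCs only. Their median GC content was 39.9%, their median width 1936 bp and their median distance to a start site 100 kb. The nearest genes of the Notch peaks included Sox21, a neural progenitor transcription factor with a peak of 3597 bp at 12.4 kb, Spry1, an inhibitor of FGF signalling with a peak at 32.2 kb, and Hdac2, a histone deacetylase with a peak at 97.6 kb. Others were near Adgrl2 (836 kb), Zfhx4 (410 kb) and Unc5d (347 kb), a guidance receptor. The peak called for RBPJ in IPCs, chr17:93312196-93313329, lay 110 kb from Adcyap1, which encodes a neuropeptide, and held 2 TTCCCA words.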
